A study of Homo sapiens with 9 samples.

Results

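The genes described here encode the machinery that displays cellular peptides on HLA class I molecules. They are the heavy chain genes HLA-B, HLA-C, HLA-E and HLA-F, the light chain gene B2M, the peptide transporter genes TAP1 and TAP2, and the immunoproteasome genes PSMB8 and PSMB9. Members were taken by gene symbol, using the row with the largest summed count where a symbol stood on several rows. All 9 members were found among the 20323 genes of the deposited table, and all 9 passed the filter on low counts that left 13153 genes to test.

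Class I molecules are cell surface complexes of a polymorphic or conserved heavy chain and beta-2 microglobulin, with a short peptide in the groove. Proteasomes cut cytosolic proteins, the TAP1-TAP2 dimer carries the peptides into the endoplasmic reticulum, and loaded complexes travel to the surface, where CD8 T cells and natural killer cells read them. Interferons raise the transcription of these genes through IRF and STAT factors and through the transactivator NLRC5, and tubular epithelium of the kidney is known to display more class I during inflammation.

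RNA was measured in HKC-8, an established human proximal tubular epithelial line, in 9 libraries. The 3 Wnt1_KP6 libraries came from cells given the Wnt1 plasmid together with KP6, which is a peptide derived from the kidney protein Klotho. The 3 Wnt1 libraries came from cells given the plasmid alone, and the 3 control libraries from cells given the empty vector pcDNA3. The labels give no dose, time or vehicle for KP6 and do not say how the plasmid was delivered, and all libraries carry the batch label 1. The study's title concerns Wnt/beta-catenin and ATF3 signalling in kidney injury, so the comparisons ask whether class I genes differ with the plasmid and with added KP6. Separate cultures are not named in the labels, and each p-value here reflects the variation among these libraries, part or all of which could be technical.

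Library totals were 21199078 to 27507623 expected counts, which are estimated read counts per gene. Replicate 1 of every group stood apart on the first principal component of all tested genes, which held 38.1% of the variance, at -38.8 to -37.4, against 9.21 to 25.1 for the other 6 libraries. WNT1 itself had 1, 2 and 0 counts in Wnt1_KP6 replicates 1, 2 and 3, and 0 counts in the 3 Wnt1 and the 3 control libraries, so the plasmid's transcript was not seen in the gene's row. The epithelial keratins KRT8 and KRT18 stood at 301 to 441 CPM (counts scaled to library size) and EPCAM at 44.2 to 87.2 CPM, but KRT19 at 1.87 to 12.1 CPM and CDH1 at 0 to 0.141 CPM were low. KRT19 was highest in replicate 1 of every group, and EPCAM was lowest in replicate 1 of both plasmid groups and highest in that of the control group. Among the proximal tubule genes, LRP2, AQP1, SLC34A1 and HNF4A were at or near 0 and PAX8 and GGT1 were at 122 to 810 CPM. The leukocyte genes PTPRC, CD3E, MS4A1 and NKG7 were at 0 counts in all 9 libraries. CD68, expressed in many cell types, was the only leukocyte marker listed that passed the filter, at 26.1 to 50.6 CPM.

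The 300 bases around the start site of 4 members are shown because the interferon and enhancer elements of these promoters are textbook regulators of the pathway, and because these members carry the results below. Sequences are from RefSeq on GRCh38.p14, 250 bases before to 50 after the start, written in the direction of transcription, and 8 of the 9 members matched, all but HLA-E. Capitals mark IRF elements, the CCAAT box, the CRE-like core TGACG and the NF-kB consensus, searched on both strands, where neighbouring matches can overlap or merge. The IRF elements are the core of the interferon-stimulated response element (ISRE), which is GAAA and GAAA with any 2 bases between, and a shorter form, which is GAA and GAAA with any 2 bases between; neither contains the other. HLA-B lies at chr6:31357130-31357429 and HLA-C at chr6:31272043-31272342, both on the minus strand. B2M lies at chr15:44711267-44711566 on the plus strand and TAP1 at chr6:32853655-32853954 on the minus strand.
HLA-B: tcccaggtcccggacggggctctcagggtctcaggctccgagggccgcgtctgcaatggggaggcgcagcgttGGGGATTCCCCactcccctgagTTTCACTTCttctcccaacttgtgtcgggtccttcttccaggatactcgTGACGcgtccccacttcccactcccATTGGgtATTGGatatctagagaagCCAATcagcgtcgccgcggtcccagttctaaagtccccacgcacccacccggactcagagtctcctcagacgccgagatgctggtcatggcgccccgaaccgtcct
HLA-C: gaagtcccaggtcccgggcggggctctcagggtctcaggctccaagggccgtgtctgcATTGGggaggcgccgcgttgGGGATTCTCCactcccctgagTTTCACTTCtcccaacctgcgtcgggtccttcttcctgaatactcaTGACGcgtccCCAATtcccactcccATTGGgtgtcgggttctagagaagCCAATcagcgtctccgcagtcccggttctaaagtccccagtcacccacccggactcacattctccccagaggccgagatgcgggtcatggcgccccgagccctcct
B2M: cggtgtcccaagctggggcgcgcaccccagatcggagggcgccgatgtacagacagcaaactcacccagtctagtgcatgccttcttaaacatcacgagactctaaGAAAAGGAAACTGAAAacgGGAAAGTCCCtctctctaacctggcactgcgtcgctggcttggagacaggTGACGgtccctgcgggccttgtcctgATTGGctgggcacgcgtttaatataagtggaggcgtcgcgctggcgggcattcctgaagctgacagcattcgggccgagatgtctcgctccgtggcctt
TAP1: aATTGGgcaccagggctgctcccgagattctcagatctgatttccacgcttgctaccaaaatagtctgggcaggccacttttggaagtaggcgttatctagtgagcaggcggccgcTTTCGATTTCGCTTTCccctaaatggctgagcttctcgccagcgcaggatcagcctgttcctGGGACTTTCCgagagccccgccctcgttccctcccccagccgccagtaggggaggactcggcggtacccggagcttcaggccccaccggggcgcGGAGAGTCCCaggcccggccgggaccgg

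The B2M window held the ISRE core at 2 overlapping positions, beginning at bases -144 and -138 relative to the start. The TAP1 window also held 2, on the opposite strand, at bases -134 and -128, while a second TAP1 window in the RefSeq table (chr6:32852712-32853011) held neither IRF form. HLA-B and HLA-C instead held the shorter form, at bases -155 and -151, with an NF-kB consensus just upstream and TGACG and CCAAT boxes nearer the start, and HLA-C had a further CCAAT box at base -192. The ISRE core was found in 3.57% of the 35116 promoter windows and the shorter form in 7.66%, while NF-kB, TGACG and CCAAT matches were found in 11.3%, 24.6% and 34.6%. Among the other windows, HLA-F and TAP2 each held 1 ISRE core, as did 1 of the 2 PSMB8 windows, and neither form was found in the PSMB9 window. The HLA-B and HLA-C windows were 88.5% identical over 304 aligned columns, whereas identity with B2M was 49.4% for HLA-B and 49.6% for HLA-C. The TAP1 and PSMB9 windows run in opposite directions and share 13 bases. These matches describe letters in the windows and say nothing of binding.

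In GENCODE release 29 on GRCh38, the assembly also called hg38, 8 members lie on chromosome 6, within the major histocompatibility complex, and B2M on chromosome 15. TAP2 (chr6:32821833-32838780), PSMB8 (chr6:32840717-32844703), TAP1 (chr6:32845209-32853978) and PSMB9 (chr6:32844136-32859585) are neighbours, with PSMB9 on the plus strand and the other 3 on the minus strand. The annotated span of PSMB9 takes in all of TAP1 and part of PSMB8. HLA-C (chr6:31268749-31272130) and HLA-B (chr6:31269491-31357188) are annotated on the minus strand, and HLA-F (chr6:29722775-29738528) and HLA-E (chr6:30489467-30494205) on the plus strand. B2M spans chr15:44711487-44718877 on the plus strand. As annotated, the span of HLA-B takes in part of HLA-C. Exons of genes on the opposite strand covered 28.5% of the exon bases of HLA-F, 20.6% of PSMB8 and 17.8% of HLA-B. For TAP1 the share was 9.49% and for PSMB9 4.52%, and it was 0 for HLA-C, HLA-E, B2M and TAP2. Reads from such genes cannot be separated where strand was not kept. All 9 are protein coding.

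On the FPKM scale the authors deposited, which is per length and can be compared between genes, B2M was by far the most abundant member. Its level was 635 ± 236 FPKM in Wnt1_KP6, 647 ± 193 in Wnt1 and 520.2 ± 166 in control libraries (SD, n = 3 each). HLA-E had 45.6 ± 9.50 FPKM in Wnt1_KP6, 47.6 ± 12.0 in Wnt1 and 41.9 ± 3.81 in control libraries. HLA-B had 42.0 ± 12.8, 43.8 ± 13.2 and 46.0 ± 3.96 FPKM in Wnt1_KP6, Wnt1 and control libraries, and HLA-C 42.0 ± 4.80, 43.8 ± 3.99 and 36.7 ± 5.62 FPKM. The libraries of these 3 heavy chains overlapped in every group, so their order is not beyond their spread. The HLA alleles of HKC-8 are unknown, and how far heavy chain levels depend on how reads were assigned was not tested. PSMB8 came next at 29.9 ± 4.35 FPKM in Wnt1_KP6, 31.0 ± 2.69 in Wnt1 and 31.8 ± 6.39 in control libraries, overlapping HLA-C in the control group and below it in all libraries of the plasmid groups. PSMB9 and TAP2 lay between 10.6 and 13.1 FPKM as group means and their ranges overlapped in every group. TAP1 was lower, at 8.90 ± 0.755 FPKM in Wnt1_KP6, 9.21 ± 0.866 in Wnt1 and 6.47 ± 0.321 in control libraries, overlapping PSMB9 in Wnt1_KP6, and HLA-F was lowest, at 0.871 to 2.63 FPKM per library.

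**Figure D1:**
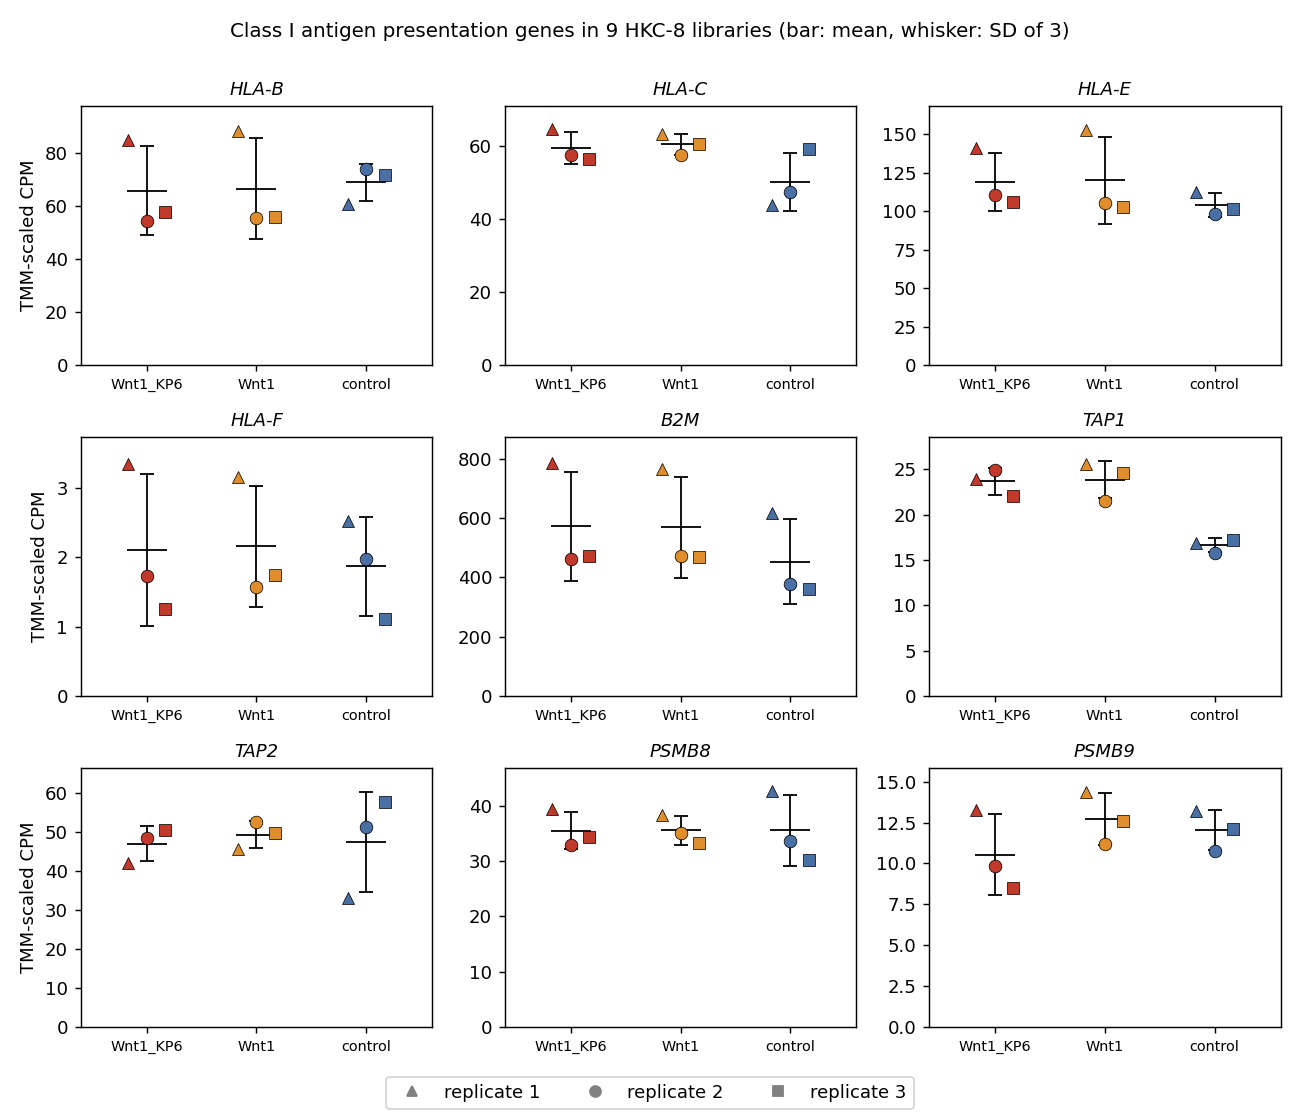
TMM-scaled CPM of the 9 members in each library, by group, with the mean as a bar and the SD of 3 libraries as a whisker; triangles are replicate 1, circles replicate 2 and squares replicate 3. TAP1 is the member whose Wnt1_KP6 and Wnt1 libraries, at 21.5 to 25.5 CPM, all lie above the control libraries at 15.8 to 17.2 CPM, and B2M replicate 1 lies above replicates 2 and 3 in every group.

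From here on, levels are CPM from expected counts scaled by TMM, a library-size correction, and they are compared between libraries and not between genes. A gene was called where edgeR's quasi-likelihood test gave a Benjamini-Hochberg adjusted p under 0.05 over the 13153 genes. In the comparison of Wnt1 with control 0 of 9 members were called, where 0.122% of all genes were (16 genes), and 1 member had an unadjusted p under 0.05, where 11.2% of all genes did. In the comparison of Wnt1_KP6 with control 0 of 9 were called, against a background of 0.228% (30 genes), and 1 had an unadjusted p under 0.05, against 15.8% of all genes. In the comparison of Wnt1_KP6 with Wnt1 0 of 9 members and 0% of all genes were called, and 0 members had an unadjusted p under 0.05, against 363 genes (2.76%). DESeq2 called 1 member, TAP1, in each of the comparisons with control and 0 members between Wnt1_KP6 and Wnt1, where it called 305 genes (2.32%) in Wnt1 with control, 675 (5.13%) in Wnt1_KP6 with control and 19 (0.144%) in Wnt1_KP6 with Wnt1.

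The median log2 fold change of the 9 members was 0.17 for Wnt1_KP6 over control and 0.21 for Wnt1 over control, beside -0.01 and 0.00 over all genes tested. For Wnt1_KP6 over Wnt1 it was -0.02, beside 0.00 over all genes. The members' fold changes were above 0 for 5 of 9 in Wnt1_KP6 over control, 8 of 9 in Wnt1 over control and 1 of 9 in Wnt1_KP6 over Wnt1, where 49.0%, 49.4% and 50.3% of all genes were above 0. The comparisons share libraries, so these values are not independent of one another. The count for Wnt1 over control also depended on a single library. Without Wnt1 replicate 1, HLA-B (-0.31), HLA-E (-0.0017), HLA-F (-0.18), PSMB8 (-0.057) and PSMB9 (-0.018) were below 0. HLA-C, B2M, TAP1 and TAP2 stayed above 0. In bulk RNA, a lower share of cells that express a gene and a lower level per cell cannot be told apart.

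**Figure D2:**
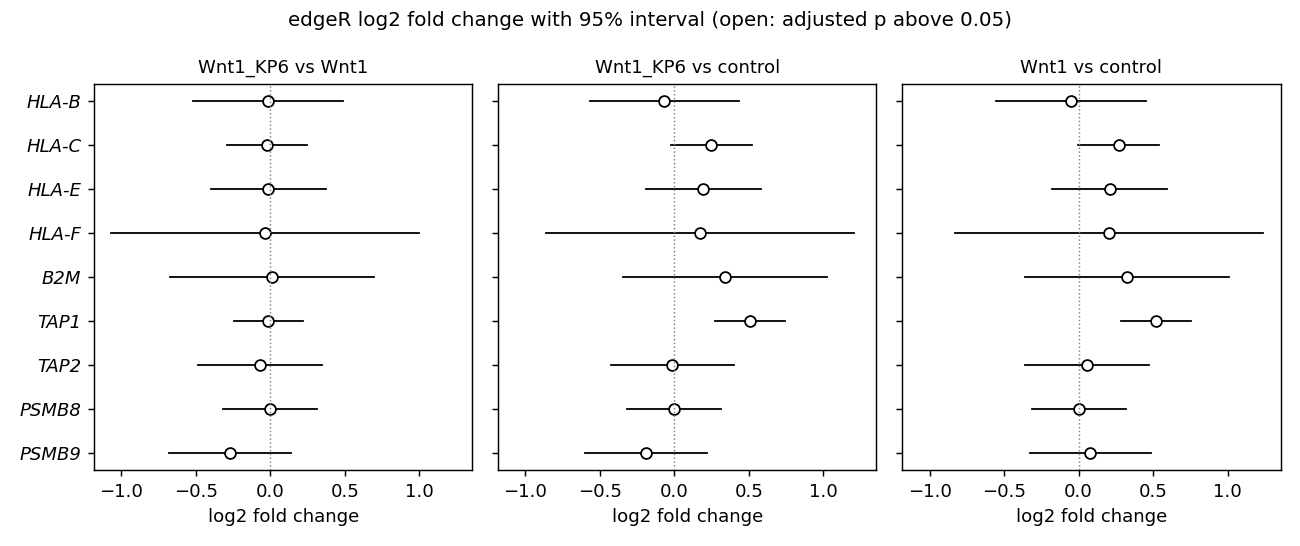
Log2 fold change of each member from edgeR with its 95% interval (x axis) in the 3 comparisons; all circles are open because no adjusted p was under 0.05. TAP1 is the member whose interval lies wholly above 0 in both comparisons with control, at 0.27 to 0.74 for Wnt1_KP6 and 0.29 to 0.76 for Wnt1.

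TAP1, one of the paired subunits of the ATP-driven peptide transporter, gave the clearest separation between libraries. It had 23.9, 24.9 and 22.1 CPM in Wnt1_KP6 replicates 1, 2 and 3, and 25.5, 21.5 and 24.5 CPM in Wnt1 replicates 1, 2 and 3, against 16.9, 15.8 and 17.2 CPM in control replicates 1, 2 and 3. All 6 libraries with the Wnt1 plasmid were above all 3 control libraries, while the Wnt1_KP6 and Wnt1 libraries overlapped. TAP1 was the only member of 9 whose libraries did not overlap in either comparison with control. Of all genes, 8.71% were higher without overlap in Wnt1_KP6 and 8.67% in Wnt1, so 1 of 9 members was near those shares. No member was lower without overlap (0 of 9 in each comparison), where 7.79% of all genes were in Wnt1_KP6 and 7.87% in Wnt1 against control. Between Wnt1_KP6 and Wnt1 0 of 9 members were free of overlap, where 2.87% of all genes were higher and 2.93% lower. Its level was 1.42-fold higher for Wnt1_KP6 over control, a log2 fold change of 0.51 ± 0.10 (SE, edgeR adjusted p = 0.0766). For Wnt1 over control it was 1.44-fold higher, 0.52 ± 0.10 on the log2 scale (edgeR adjusted p = 0.125). The unadjusted edgeR p-values were 0.000814 and 0.000676, so TAP1 missed the threshold over all genes in both comparisons. DESeq2 put it past the threshold, with adjusted p = 0.00227 for Wnt1_KP6 over control and 0.00278 for Wnt1 over control. Without control replicate 1 edgeR called it in both comparisons (adjusted p = 0.0284 and 0.0308), and without Wnt1_KP6 replicate 1 in Wnt1_KP6 over control (adjusted p = 0.0491). Over all alternatives its adjusted p ranged from 0.00207 to 0.377 for Wnt1_KP6 over control and from 0.00278 to 0.606 for Wnt1 over control. For Wnt1_KP6 over Wnt1 the log2 fold change was -0.01 ± 0.10, with a 95% interval of -0.25 to 0.22 (edgeR adjusted p = 1).

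TAP2, the other transporter subunit, did not follow TAP1. It had 42.0, 48.5 and 50.4 CPM in Wnt1_KP6 replicates 1, 2 and 3, 45.5, 52.4 and 49.8 CPM in Wnt1 replicates 1, 2 and 3, and 33.1, 51.3 and 57.7 CPM in control replicates 1, 2 and 3. Replicate 1 was the lowest library of every group, and the control libraries spanned all 6 others. The log2 fold change was -0.01 ± 0.18 for Wnt1_KP6 over control (edgeR adjusted p = 0.985) and 0.05 ± 0.18 for Wnt1 over control (adjusted p = 0.952). A second row with the symbol TAP2, ENSG00000250264, held 4.67% to 14.4% of the counts of both rows together, and 32.3% of the exon bases of TAP2 lie in an overlapping gene on the same strand. TAP2 counts were fractional in all 9 libraries, so its values rest on how reads were divided. With both rows summed the log2 fold changes were 0.01 for Wnt1_KP6 over control and 0.10 for Wnt1 over control.

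B2M, the light chain of class I molecules, varied more with replicate number than with group. It had 785, 461 and 471 CPM in Wnt1_KP6 replicates 1, 2 and 3, 765, 471 and 469 CPM in Wnt1 replicates 1, 2 and 3, and 618, 379 and 362 CPM in control replicates 1, 2 and 3. Replicate 1 was the highest of each group, at 1.69 times the mean of replicates 2 and 3 in Wnt1_KP6, 1.63 times in Wnt1 and 1.67 times in control libraries. Within each replicate number both plasmid libraries were above the control library. The log2 fold change was 0.34 ± 0.30 for Wnt1_KP6 over control (edgeR adjusted p = 0.654) and 0.33 ± 0.30 for Wnt1 over control (adjusted p = 0.759). These sizes moved when a single replicate 1 library was left out. Without Wnt1_KP6 replicate 1 the value for Wnt1_KP6 over control was 0.04 and without control replicate 1 it was 0.63, and for Wnt1 over control it was 0.05 without Wnt1 replicate 1 and 0.62 without control replicate 1. With the replicate number as a block, the edgeR adjusted p-values were 0.0596 and 0.0773, so the call did not change. Under that block 0 of 9 members were called in either comparison, where 1.13% of all genes were for Wnt1_KP6 and 0.722% for Wnt1. No 50-base stretch of the protein-coding B2M transcripts occurs in a transcript of another annotated gene, read in the sense direction. Other B2M transcripts and reverse complements were not searched. The B2M counts were whole in all 9 libraries.

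The classical heavy chains HLA-B and HLA-C, which present peptides to CD8 T cells, showed opposite replicate patterns in plasmid and control libraries. HLA-B had 85.2, 54.6 and 58.0 CPM in Wnt1_KP6 replicates 1, 2 and 3, and 88.6, 55.6 and 55.9 CPM in Wnt1 replicates 1, 2 and 3, against 61.1, 74.3 and 71.9 CPM in control replicates 1, 2 and 3. Replicate 1 was thus the highest HLA-B library of both plasmid groups and the lowest of the control group. HLA-C had 64.4, 57.4 and 56.4 CPM in Wnt1_KP6 replicates 1, 2 and 3, and 63.1, 57.5 and 60.3 CPM in Wnt1 replicates 1, 2 and 3, against 43.9, 47.2 and 58.9 CPM in control replicates 1, 2 and 3. For HLA-C, 3 of the 6 plasmid libraries were above the highest control library, so the groups overlapped. Over all replicates the HLA-B log2 fold change was -0.07 ± 0.22 for Wnt1_KP6 over control (edgeR adjusted p = 0.925) and -0.05 ± 0.22 for Wnt1 over control (adjusted p = 0.968). That of HLA-C was 0.25 ± 0.12 for Wnt1_KP6 over control (edgeR adjusted p = 0.359) and 0.27 ± 0.12 for Wnt1 over control (adjusted p = 0.446).

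HLA-B and HLA-C are close paralogs and their counts were fractional in all 9 libraries, so some of their reads were shared with another feature. Of the 50-base stretches of HLA-B 1.84% also occur in another member and 2.12% in any other annotated gene, and of those of HLA-C 3.42% and 6.17%. These shares cover protein-coding transcripts of HLA-B and HLA-C, matched in the sense direction only. Which feature shared the reads is not recorded in the table. HLA-B took 56.9%, 48.8% and 50.7% of the counts of both genes in Wnt1_KP6 replicates 1, 2 and 3 and 58.4%, 49.2% and 48.1% in Wnt1 replicates 1, 2 and 3. In control replicates 1, 2 and 3 it took 58.2%, 61.1% and 54.9%. The HLA-B share was lower in replicates 2 and 3 of both plasmid groups than in any control library, and in replicate 1 the 3 groups were within 56.9% to 58.4%. With both genes summed, the log2 fold change was 0.07 ± 0.16 for Wnt1_KP6 over control (edgeR adjusted p = 0.877) and 0.09 ± 0.16 for Wnt1 over control (adjusted p = 0.891), the opposite sign to HLA-B alone.

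The nonclassical heavy chains are HLA-E, a ligand of the NKG2A receptor of natural killer cells, and HLA-F, which binds several killer cell receptors. HLA-E had 141, 110.5 and 106 CPM in Wnt1_KP6 replicates 1, 2 and 3, 153, 105.5 and 103 CPM in Wnt1 replicates 1, 2 and 3, and 113, 98.2 and 102 CPM in control replicates 1, 2 and 3. Replicate 1 was the highest library of each group, and within replicates 2 and 3 the 3 groups lay between 98.2 and 110.5 CPM. The HLA-E log2 fold change was 0.19 ± 0.17 for Wnt1_KP6 over control (edgeR adjusted p = 0.649) and 0.21 ± 0.17 for Wnt1 over control (adjusted p = 0.718). HLA-F had the fewest reads, at 28 to 89 counts or 1.12 to 3.35 CPM per library, and again highest in replicate 1 of each group. Its 95% interval for Wnt1_KP6 over control ran from -0.86 to 1.21 on the log2 scale. The SE of HLA-F was 0.46 over all replicates and 0.33 in replicates 2 and 3 for that comparison.

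The immunoproteasome subunits PSMB8 and PSMB9 replace the constitutive subunits PSMB5 and PSMB6 and change which peptides are cut. PSMB8 had 39.3, 32.8 and 34.4 CPM in Wnt1_KP6 replicates 1, 2 and 3, 38.4, 35.0 and 33.3 CPM in Wnt1 replicates 1, 2 and 3, and 42.7, 33.7 and 30.2 CPM in control replicates 1, 2 and 3. The 3 groups had means of 35.5 ± 3.39, 35.6 ± 2.59 and 35.5 ± 6.49 CPM in Wnt1_KP6, Wnt1 and control libraries (SD, n = 3 each). The log2 fold changes of PSMB8 were 0.00 ± 0.14 in all 3 comparisons, and the 95% interval for Wnt1 over control was -0.31 to 0.32. PSMB9 had 13.3, 9.86 and 8.49 CPM in Wnt1_KP6 replicates 1, 2 and 3, 14.4, 11.2 and 12.6 CPM in Wnt1 replicates 1, 2 and 3, and 13.2, 10.8 and 12.1 CPM in control replicates 1, 2 and 3. Wnt1_KP6 replicates 2 and 3 had the lowest PSMB9 levels of the 9 libraries. The PSMB9 log2 fold change was -0.27 ± 0.18 for Wnt1_KP6 over Wnt1 (edgeR adjusted p = 1), the largest in size of the 9 members in that comparison, and -0.19 ± 0.18 for Wnt1_KP6 over control (adjusted p = 0.677).

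Per length, the immunoproteasome subunits stayed below their constitutive partners in every library. The FPKM ratio of PSMB8 to PSMB5 was 0.428 ± 0.0337 in Wnt1_KP6, 0.445 ± 0.0432 in Wnt1 and 0.452 ± 0.0980 in control libraries (SD, n = 3 each). The ratio of PSMB9 to PSMB6 was 0.117 ± 0.0250 in Wnt1_KP6, 0.142 ± 0.0295 in Wnt1 and 0.159 ± 0.0431 in control libraries. PSMB10, the third inducible subunit, had 0.148 ± 0.0118, 0.154 ± 0.00980 and 0.149 ± 0.0202 of the FPKM of PSMB7 in Wnt1_KP6, Wnt1 and control libraries. In 9 two-sided exact permutation tests the p-values lay between 0.3 and 1, all 1 after Benjamini-Hochberg adjustment over the 9, where 3 libraries against 3 cannot go below 0.1.

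**Figure D3:**
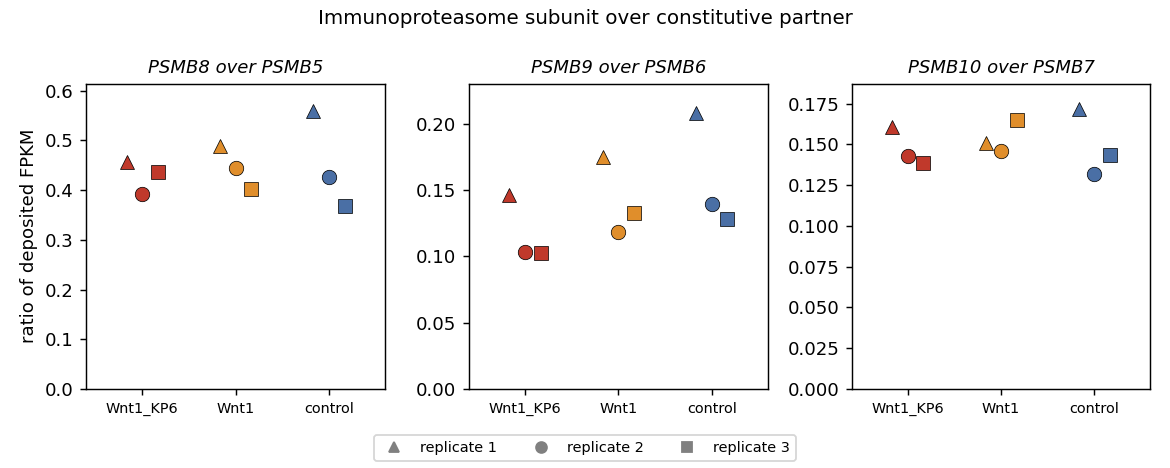
Ratio of the deposited FPKM of each inducible proteasome subunit to its constitutive partner (y axis) in each library, by group; triangles are replicate 1, circles replicate 2 and squares replicate 3. All ratios are below 1, and the groups overlap for each of the 3 pairs.

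Because replicate 1 stood apart, the comparisons were also made in replicates 2 and 3 alone, a setting chosen with that split known, and replicate 1 is given beside it as single libraries with no test. B2M, TAP1 and HLA-B were then called in both comparisons with control and 0 members between Wnt1_KP6 and Wnt1. Of 9 members 2 were higher and 1 lower in each comparison with control. The background was wide, since 21.1% of 13041 genes were higher and 19.5% lower in Wnt1_KP6 and 16.3% were higher and 15.3% lower in Wnt1, so the members' counts were near those shares. Between Wnt1_KP6 and Wnt1 the background was 6.06% higher and 2.56% lower.

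B2M was higher by 0.33 ± 0.06 on the log2 scale for Wnt1_KP6 over control (edgeR adjusted p = 0.000356) and by 0.34 ± 0.06 for Wnt1 over control (adjusted p = 0.000375) in replicates 2 and 3. In replicate 1 the values were 0.34 and 0.31, close to those of replicates 2 and 3. TAP1 was higher by 0.51 ± 0.11 for Wnt1_KP6 over control (edgeR adjusted p = 0.00207) and by 0.49 ± 0.11 for Wnt1 over control (adjusted p = 0.00415) in replicates 2 and 3, beside 0.50 and 0.59 in replicate 1. Of the called members, these 2 therefore had fold changes of 1 sign in replicate 1 and in replicates 2 and 3. HLA-C and HLA-E also kept 1 sign but were not called. For Wnt1_KP6 and Wnt1 over control, HLA-E had 0.32 and 0.44 in replicate 1. Its values in replicates 2 and 3 were 0.11 ± 0.07 and 0.06 ± 0.07.

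HLA-B had opposite signs. In replicates 2 and 3 its log2 fold change was -0.38 ± 0.07 for Wnt1_KP6 over control (edgeR adjusted p = 0.00113) and -0.39 ± 0.07 for Wnt1 over control (adjusted p = 0.00133), beside 0.48 and 0.54 in replicate 1. With HLA-B and HLA-C summed the values in replicates 2 and 3 were -0.16 ± 0.07 (edgeR adjusted p = 0.0761) and -0.14 ± 0.07 (adjusted p = 0.143), so the call ended when the paralogs were summed. HLA-C had 0.55 and 0.52 in replicate 1, beside 0.10 ± 0.10 and 0.15 ± 0.10 in replicates 2 and 3. TAP2 had 0.34 and 0.46 in replicate 1, beside -0.14 ± 0.08 and -0.09 ± 0.08 in replicates 2 and 3, for Wnt1_KP6 and Wnt1 over control. HLA-E, HLA-F, PSMB8 and PSMB9 were not called in either setting.

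**Figure D4:**
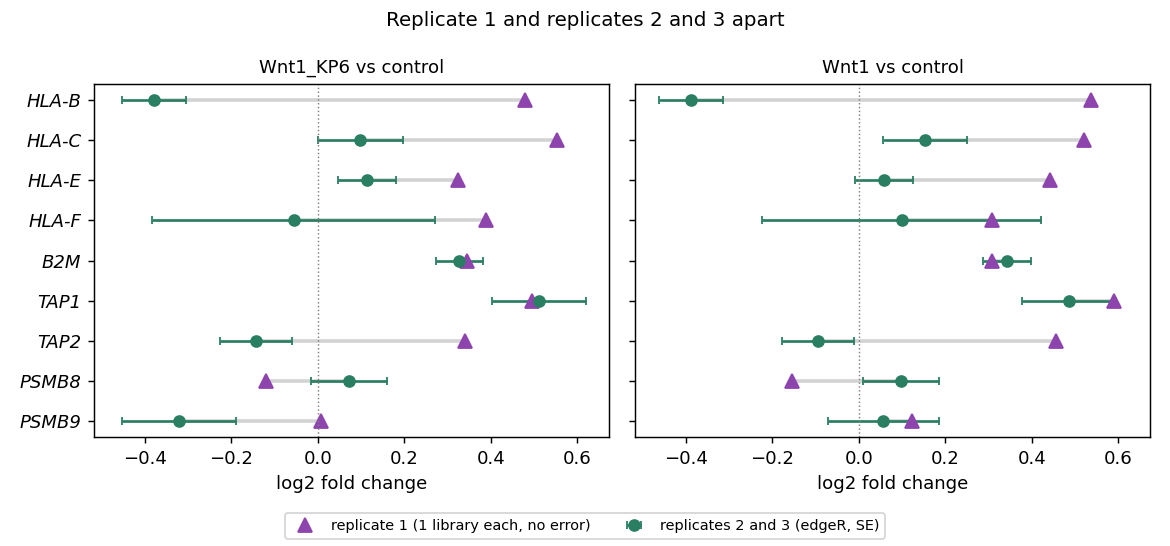
Log2 fold change over control of each member in replicate 1 (purple triangles, 1 library against 1, no error) and in replicates 2 and 3 (green circles with the SE from edgeR), for Wnt1_KP6 and Wnt1. B2M and TAP1 keep 1 sign and size, while HLA-B lies at 0.48 and 0.54 in replicate 1 and at -0.38 and -0.39 in replicates 2 and 3.

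Across the 9 members, replicate 1 was above both other libraries in all 3 groups for HLA-E, HLA-F, B2M, PSMB8 and PSMB9 and below both in all 3 groups for TAP2. LUM, a fibroblast marker, moved with the replicate number too, at 1.67, 2.34 and 2.25 CPM in replicate 1 of Wnt1_KP6, Wnt1 and control libraries and at most 0.11 CPM in the other 6. COL1A1, the fibroblast marker with the highest level, was instead lowest in replicate 1 of both plasmid groups. COL1A1 had 15.9, 22.8 and 20.8 CPM in Wnt1_KP6 replicates 1, 2 and 3, and 14.65, 15.4 and 19.1 CPM in those of Wnt1. In control replicates 1, 2 and 3 it had 23.7, 20.75 and 23.4 CPM. The summed level of the 5 fibroblast markers was 17.6 to 22.9 CPM in Wnt1_KP6, 15.6 to 19.9 CPM in Wnt1 and 21.1 to 31.3 CPM in control libraries, and DCN was at 0 in 7 of 9 libraries. Control replicate 1 had the highest COL3A1 and DCN levels, 3.45 and 1.34 CPM, where the other 8 libraries had at most 0.542 and 0.209 CPM. CD68 stood at 49.5 and 50.6 CPM in replicate 1 of Wnt1_KP6 and Wnt1, beside 26.1 to 30.7 CPM in their replicates 2 and 3, and at 37.5, 38.2 and 50.5 CPM in control replicates 1, 2 and 3. The part of these markers in the replicate pattern was not tested.

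Genes around the members were described by lists, chosen with earlier results of these data known, and edgeR called 0 genes of the 7 lists in any comparison, with or without the replicate block. Of their 63 tested genes 13 had an unadjusted edgeR p under 0.05 for Wnt1_KP6 over control, 9 for Wnt1 over control and 5 for Wnt1_KP6 over Wnt1, beside 15.8%, 11.2% and 2.76% of all genes. DESeq2 called HSPA5, ERAP1, ERAP2, IRF1, NLRC5, IFNAR2 and TNF for Wnt1_KP6 over control, HSPA5, IRF9 and STAT2 for Wnt1 over control, and TNF for Wnt1_KP6 over Wnt1, which is 7, 3 and 1 of 63 genes, beside 5.13%, 2.32% and 0.144% of all genes. Among 8 peptide loading and trimming genes the median log2 fold change was -0.01 for Wnt1_KP6 over control and -0.03 for Wnt1 over control. HSPA5, the endoplasmic reticulum chaperone BiP, had 1981 ± 522 CPM in Wnt1_KP6, 1888 ± 271 CPM in Wnt1 and 774 ± 193 CPM in control libraries. Its log2 fold change was 1.36 ± 0.24 for Wnt1_KP6 over control (edgeR adjusted p = 0.0584) and 1.29 ± 0.24 for Wnt1 over control (adjusted p = 0.110). The value was smaller in replicate 1, at 0.48 and 0.66, than in replicates 2 and 3, at 1.78 and 1.62. The trimming peptidases pointed the other way, with ERAP1 at -0.33 ± 0.10 and ERAP2 at -0.27 ± 0.08 for Wnt1_KP6 over control (edgeR adjusted p = 0.160 and 0.174). For Wnt1 over control ERAP1 was at -0.31 ± 0.10 and ERAP2 at -0.26 ± 0.08 (edgeR adjusted p = 0.297 for both). Between Wnt1_KP6 and Wnt1 the 3 genes of this list with the smallest p, TAPBP, TAPBPL and CANX, had log2 fold changes of 0.07, -0.07 and -0.05.

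The proteasome lists had 0 calls by edgeR or DESeq2 and 0 unadjusted edgeR p-values under 0.05 in the 3 comparisons. Medians were 0.05 for Wnt1_KP6 over control and 0.05 for Wnt1 over control among 8 immunoproteasome and activator genes, and 0.00 in both among 14 constitutive core genes. PSME4, a proteasome activator, had 0.32 ± 0.17 for Wnt1_KP6 over control (edgeR adjusted p = 0.388) and 0.31 ± 0.17 for Wnt1 over control (adjusted p = 0.524). Its values were -0.04 and 0.03 for replicate 1, beside 0.55 and 0.50 for replicates 2 and 3. PSMB10 had -0.06 ± 0.14 for Wnt1_KP6 over Wnt1 (edgeR adjusted p = 1).

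Among 17 transcription regulators of class I, 16 were tested, with medians of 0.20 for Wnt1_KP6 over control and 0.18 for Wnt1 over control, and 0.00 for Wnt1_KP6 over Wnt1. IRF1, an interferon-induced activator of class I promoters, had 62.9 ± 15.6 CPM in Wnt1_KP6, 35.9 ± 7.79 CPM in Wnt1 and 23.6 ± 4.42 CPM in control libraries. Its log2 fold change was 1.41 ± 0.23 for Wnt1_KP6 over control (edgeR adjusted p = 0.0523). The change for Wnt1_KP6 over Wnt1 was 0.81 ± 0.23 on the log2 scale (adjusted p = 1). That value split into 0.00 for replicate 1 and 1.19 for replicates 2 and 3. NLRC5, the class I transactivator, had 7.90 ± 0.301 CPM in Wnt1_KP6 and 4.04 ± 1.81 CPM in control libraries, a log2 fold change of 0.96 ± 0.28 (edgeR adjusted p = 0.158) that was 0.31 for replicate 1 and 1.41 for replicates 2 and 3. In Wnt1 replicates 1, 2 and 3 NLRC5 had 8.37, 6.08 and 7.01 CPM, which overlapped the Wnt1_KP6 libraries. The higher NLRC5 level was therefore not particular to added KP6. IRF9 and STAT2, partners in the interferon-activated ISGF3 complex, had 0.60 ± 0.12 and 0.44 ± 0.10 for Wnt1 over control (edgeR adjusted p = 0.121 and 0.148) and -0.26 ± 0.12 and -0.19 ± 0.10 for Wnt1_KP6 over Wnt1 (adjusted p = 1 for both). RFXANK, a subunit of the RFX complex, had 0.32 ± 0.09 for Wnt1 over control (edgeR adjusted p = 0.259), and NFYB, a CCAAT-binding subunit, -0.44 ± 0.13 for Wnt1_KP6 over control (adjusted p = 0.155).

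Of 12 interferon receptor and cytokine genes 7 were tested, and IFNG, IFNL1 and IFNL2 had 0 counts in all 9 libraries. Medians were 0.31 for Wnt1_KP6 over control, 0.03 for Wnt1 over control and 0.34 for Wnt1_KP6 over Wnt1. TNF, a cytokine that raises class I through NF-kB, had 15.3 ± 11.7 CPM in Wnt1_KP6, 2.44 ± 0.548 CPM in Wnt1 and 2.25 ± 0.722 CPM in control libraries. Its log2 fold change was 2.76 ± 0.74 for Wnt1_KP6 over control (edgeR adjusted p = 0.144), and it was 0.17 for replicate 1 and 3.15 for replicates 2 and 3. IFNAR2, a chain of the type I interferon receptor, had 0.40 ± 0.11 for Wnt1_KP6 over control (edgeR adjusted p = 0.139), and IFNGR2, a chain of the interferon gamma receptor, 0.31 ± 0.15 (adjusted p = 0.354).

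Class I like molecules and class II genes had 0 calls by edgeR or DESeq2 and 0 unadjusted edgeR p-values under 0.05 in the 3 comparisons. Of 7 class I like genes 4 were tested, with HLA-G at 0 counts in all 9 libraries, and PROCR had -0.32 ± 0.21 for Wnt1_KP6 over control (edgeR adjusted p = 0.525), with opposite signs in replicate 1, at 0.37, and in replicates 2 and 3, at -0.64. Of 12 class II genes 6 were tested, and HLA-DRA, HLA-DQA1 and HLA-DQB1 had 0 counts in all 9 libraries. CD74, the invariant chain, had 93.7 ± 0.984 CPM in Wnt1_KP6, 93.2 ± 6.90 CPM in Wnt1 and 107 ± 17.8 CPM in control libraries, with -0.19 ± 0.12 for Wnt1_KP6 over control (edgeR adjusted p = 0.513). HLA-DPA1 was at 0.762 ± 0.0996 CPM in Wnt1_KP6, 0.638 ± 0.253 CPM in Wnt1 and 1.16 ± 0.282 CPM in control libraries, and its log2 fold change was -0.86 ± 0.38 for Wnt1 over control (edgeR adjusted p = 0.447).

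**Figure D5:**
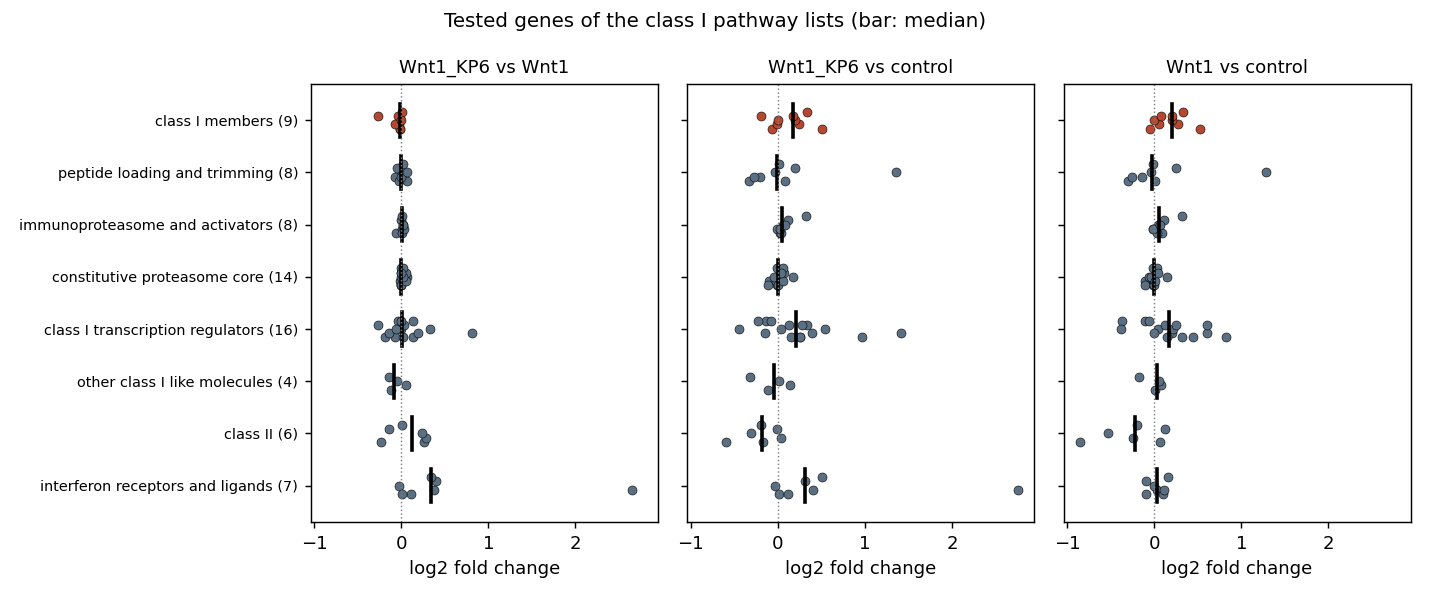
Log2 fold change (x axis) of each tested gene of the class I members and of 7 related lists in the 3 comparisons, with a bar at each list's median; the number of tested genes stands beside each list. Most genes lie near 0, and the 3 points farthest above 0 for Wnt1_KP6 over control are TNF at 2.76, IRF1 at 1.41 and HSPA5 at 1.36.

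The members' mean profile over the 9 libraries, each gene centred on its own mean log2 CPM, was 0.29 in Wnt1_KP6 replicate 1 and 0.33 in Wnt1 replicate 1, and -0.15 to -0.02 in the other 7 libraries. HLA-E had the highest correlation with it, r = 0.962, and TAP2 the lowest, r = -0.428, as a description over 9 libraries that share 3 replicate numbers and with each member part of the mean. The 10 other tested genes most like the profile were C1orf43, MOB3A, SEMA4B, LDAF1, EIF3D, ZNF8, CBR1, TBL2, UBASH3B and MEF2C, with r from 0.972 to 0.992. In replicates 2 and 3 alone, over 6 libraries, their r lay between 0.598 and 0.921. These 6 libraries were among the 9 used to pick the genes, so these r values are not an independent check. SEMA4B, for instance, had 118 to 247 CPM in replicate 1 of the 3 groups and 67.0 to 99.7 CPM in the other 6 libraries. No shared function is implied by this likeness.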

How the data were processed

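Oligo(dT)-enriched mRNA of HKC-8 was made into libraries with a NEBNext Ultra kit and read on an Illumina NovaSeq, per the labels' protocols. No label says that strand was kept, so antisense reads cannot be separated from those of the gene. Per the submitters' processing notes, fastp 0.18.0, Bowtie2 2.2.8, HISAT2, StringTie 1.3.1, RSEM and build hg38 were used; which step each served, and the annotation release, is not given in the sources used here. For every gene and library the authors deposited 1 expected count and 1 FPKM value, per the file headers; FPKM is scaled to gene length and library size. Of the expected counts 87.6% were whole.

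Treatment labels gave the groups, and titles gave the replicate numbers. Expected counts were rounded, filtered (filterByExpr, minimum count 10, minimum total 15) and tested with edgeR 4.0.16 in R 4.3.3 (TMM, robust quasi-likelihood, 3 group means over all 9 libraries, two-sided, Benjamini-Hochberg over 13153 genes). SE is the log2 fold change divided by the square root of its F statistic. Alternatives were DESeq2 1.42.0 or its size factors, no filter, limma 3.58.1 on log2(FPKM + 1), a replicate block, leaving out each library, and replicates 2 and 3 alone; library-size scaling and summed rows of HLA-B with HLA-C and of TAP2 were added after the data were seen. Same-numbered libraries of different groups, numbered in the titles, deviated together from their group means (r of 0.11 to 0.672 in 9 of 9 pairs, all over 0.1). No values for differently numbered libraries are given as a reference. With replicate 1 apart in every group, replicates 2 and 3 deviate the same way from their group means by construction. The r values therefore cannot show that the numbers pair samples, and the labels state no pairing. The block fit treated the numbers as pairing the samples and is given as an alternative. Of 9 replicate pairs 0 agreed within sampling noise, so none were merged.

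Named genes are the 9 members, the 3 genes of each list with the smallest p in each comparison, of which the text gives a part, and the 10 genes most like the members' profile. The members and lists were chosen with earlier results of these data known. Counts of near-identical paralogs and overlapping genes are estimates that divide shared reads.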

Additional observations from a re-analysis of the deposited data

How the results depend on the processing

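TAP1, B2M and HLA-B were the members whose calls depended on the setting. Of 27 member fold changes, 27 kept direction and call under DESeq2 size factors, 26 without the filter on low counts, 25 with the replicate block, 25 under DESeq2 and 24 under limma on log2(FPKM + 1). DESeq2 called 1 member, TAP1, in each comparison with control, and 305, 19 and 675 genes in Wnt1 vs control, Wnt1_KP6 vs Wnt1 and Wnt1_KP6 vs control. The replicate block called 95 genes in Wnt1 vs control and 149 in Wnt1_KP6 vs control and changed no member's call. In Wnt1_KP6 vs control, limma called 17 genes and library-size scaling, which was added after the data were seen, 13. Replicates 2 and 3 alone gave 4115, 1124 and 5293 genes in the 3 comparisons, and 3 members in each comparison with control.

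Leaving out 1 library at a time gave 0 to 879 genes in Wnt1 vs control, 0 to 214 in Wnt1_KP6 vs Wnt1 and 0 to 1198 in Wnt1_KP6 vs control, and 0 to 1 members in each comparison with control. Without control replicate 1 the counts were 879 and 1198 in the comparisons with control, and without Wnt1_KP6 replicate 1 they were 214 for Wnt1_KP6 vs Wnt1 and 692 for Wnt1_KP6 vs control. Without control replicate 2 or 3 they were 0 in all 3 comparisons.

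Several fold changes that were not called changed sign. In Wnt1 vs control, leaving out 1 library gave -0.31 to 0.065 (HLA-B), -0.0017 to 0.31 (HLA-E), -0.18 to 0.48 (HLA-F), -0.15 to 0.22 (TAP2), -0.10 to 0.16 (PSMB8) and -0.018 to 0.16 (PSMB9). In Wnt1_KP6 vs Wnt1 it gave -0.25 to 0.24 (HLA-B), -0.083 to 0.015 (HLA-C), -0.15 to 0.20 (HLA-E), -0.54 to 0.35 (HLA-F), -0.29 to 0.29 (B2M), -0.082 to 0.038 (TAP1), -0.12 to 0.0069 (TAP2) and -0.081 to 0.057 (PSMB8). In Wnt1_KP6 vs control it gave -0.29 to 0.045 (HLA-B), -0.33 to 0.45 (HLA-F), -0.22 to 0.15 (TAP2) and -0.10 to 0.15 (PSMB8).

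In replicates 2 and 3 alone TAP2 was at -0.094 in Wnt1 vs control. There HLA-B was at 0.011, HLA-E at 0.056, B2M at -0.014 and TAP1 at 0.026 in Wnt1_KP6 vs Wnt1, and HLA-F at -0.056 and PSMB8 at 0.072 in Wnt1_KP6 vs control. The replicate block put TAP2 at 0.012 and PSMB8 at 0.0089 in Wnt1_KP6 vs control, and PSMB8 stood at 0.00062 without the filter. limma gave -0.022 for PSMB8 and -0.0098 for PSMB9 in Wnt1 vs control and -0.047 for B2M in Wnt1_KP6 vs Wnt1. Library-size scaling gave -0.027 for PSMB8 in Wnt1 vs control and -0.033 for B2M in Wnt1_KP6 vs Wnt1. With rows summed, HLA-B and HLA-C together stood at 0.093 in Wnt1 vs control and 0.074 in Wnt1_KP6 vs control, and TAP2 at 0.0085 in Wnt1_KP6 vs control. The cause of these changes was not tested. HLA-F had the fewest counts and the widest interval.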
